A study of Neurospora crassa with 24 samples.

Results

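The response to light of aerial tissue that lacks *ve-1* was described from 4 of the 24 RNA-seq libraries of the series: the 2 libraries of the *Neurospora crassa* Δ*ve-1* mutant that received light and the 2 that stayed in the dark. They were chosen by their labels and not by any measured value, and all genes were included. The Δ*ve-1* strain was a deletion strain in the OR74A background. For this stage, mycelia were grown for 24 h in submerged culture and were then placed on solid medium, and the aerial tissue, which holds aerial hyphae and developing conidia together, was collected 15 h later (A15). The dark cultures spent all 15 h in darkness, and the other cultures received white light during the final 30 min. Groups used for comparison were wild-type A15 in the dark and after the same light (2 libraries each), vegetative mycelia of the mutant grown for 48 h (V), either kept dark or illuminated for 30 min before harvest (2 libraries each), and mycelia grown for 24 h in the dark before conidiation began (S, 4 libraries of each strain). Dark and illuminated V libraries of the wild type were in the fit for V too, where they shared the estimate of the spread. The study used independent biological replicates for RNA quantification in general, but its statement asks for more replicates than these groups of 2 hold, and no source says whether these libraries came from separate cultures. *P* values therefore measure only the spread between these libraries, which may be technical. Because the tissue is a mixture, less mRNA per cell and fewer cells of a kind cannot be told apart.

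In *N. crassa*, blue light is perceived by the white collar complex, a pair of transcription factors encoded by *wc-1* and *wc-2* that binds the promoters of light-responsive genes within minutes. The early targets include *vvd*, which encodes a second blue-light receptor that turns the response down, the clock gene *frq*, the carotenoid genes *al-1*, *al-2* and *al-3*, and genes of conidiation such as *con-6* and *con-10*. VE-1 is a velvet protein. In *Aspergillus nidulans*, velvet proteins form a nuclear complex with the putative methyltransferase LaeA that connects light with development and secondary metabolism.

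The mRNA for *ve-1* was at 1.82 and 3.46 CPM (counts scaled to library size, with the TMM method of edgeR) in the dark mutant and at 1.04 and 0.917 in the illuminated mutant, against levels from 171 to 260.2 CPM in the 4 wild-type A15 libraries. All 8 markers of conidiating aerial tissue (*eas*, *con-6*, *con-8*, *con-10*, *con-13*, *fl*, *acon-3* and *csp-2*) were higher in each of the 4 libraries than in any S library of the mutant. On a scale common to all 24 libraries, their summed level was between 151801 and 179544 CPM in the dark and between 97826 and 134993 CPM in the light, most of it *eas*. The lower sum in the light was mostly that of *eas*. Of the other markers, *con-6*, *con-8* and *con-10* were higher in both light libraries than in both dark ones. *acon-3* and *csp-2* were lower in both light libraries, and for *fl* and *con-13* the groups overlapped. The 4 markers of sexual tissue summed to between 10.6 and 40.6 CPM. The 4 libraries held 14697083 to 16753462 counts, at which 3 counts, taken as the smallest amount that can be shown, were 0.183 to 0.253 CPM. Dark replicate 2 stood apart. Its log CPM correlated with that of dark replicate 1 at *r* = 0.918 over 8193 genes, below the 0.957 between dark replicate 1 and light replicate 1, whereas the light libraries correlated with each other at 0.985. The 7 cytosolic ribosomal protein genes, on the same scale as the markers, summed to 3232 CPM in dark replicate 1 and to 9174 CPM in dark replicate 2, around the 5325 to 6258 CPM of the light libraries. Many, but not all, of the named values that moved with a dark library are given with and without it. Leaving out a library of A15 left its group with a single library. Calls and *P* values of such a fit take their spread from the other groups.

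No single gene passed the test of edgeR, and most of the known early light genes were higher in both light libraries than in both dark libraries. With the study's threshold for a differentially expressed gene (DEG), an adjusted *P* value under 0.001 together with an absolute log2 fold change (log2FC) of 2 or more, the quasi-likelihood test of edgeR with Benjamini-Hochberg adjustment called 0 of 8193 genes (0%). At an adjusted *P* value under 0.05 it also called 0 (0%), and the smallest adjusted value was 0.081. Without dark replicate 1, edgeR called 788 genes at 0.05, and without any of the other 3 libraries 0 or 1. At an unadjusted *P* value under 0.05, 374 genes were higher (4.56%) and 630 were lower (7.69%) in the light, and 260 genes had an absolute log2FC of at least 2. DESeq2, the tool of the study, called 29 DEGs on the same 4 libraries at the study's threshold, of which 15 rose (0.17% of the genes tested) and 14 fell (0.159%), and 173 genes at an adjusted *P* value under 0.05, 67 higher (0.761%) and 106 lower (1.2%). In a fit of edgeR on the 8 mutant libraries of A15 and V, which estimates the spread from the V replicates too, 46 genes passed at 0.05. The number of calls thus depended on the tool and on the libraries from which the spread was estimated, and the levels in each library are given first below. Where a gene is said to rise or fall in A15, the call is that of DESeq2 on the 4 libraries. These genes were chosen for description after their values were seen.

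Among the 15 upregulated genes were 4 known early light genes. The *vvd* gene (chromosome VI, 2268533 to 2271812 in NC12) was measured at 17.5 and 52.5 CPM in the dark and 415 and 425 CPM in the light. Both light libraries were above both dark libraries and close to each other, while the dark libraries differed about 3-fold. Its log2FC was 3.59 ± 0.52 (SE, n = 2 per group), with an adjusted *P* value of 0.129 by edgeR and 7.55e-06 by DESeq2. The log2FC was 4.58 without dark replicate 2. The conidiation gene *con-6* (chromosome III, 5205042 to 5205927) was measured at 2107 and 2983 CPM in the dark and 13250.4 and 15975 CPM in the light, a log2FC of 2.52 ± 0.57 (adjusted *P* = 4.78e-05 by DESeq2). The light libraries lay far above the dark ones, in a tissue in which the mRNA was already abundant in the dark. NCU08770 (chromosome III, 5203616 to 5204342), the next gene on that chromosome, was measured at 213 and 182 CPM in the dark and 1495 and 1354 CPM in the light, a log2FC of 2.85 ± 0.58 (adjusted *P* = 9.07e-08 by DESeq2). The blue-light-induced gene *bli-4* went from 31.8 and 37.8 CPM in the dark libraries to 172 and 175 CPM in the light libraries, with a log2FC of 2.32 ± 0.51 (adjusted *P* = 9.99e-05 by DESeq2).

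The other 11 upregulated genes are not among the early light genes, but NCU01926, NCU07434 and *crf5-1* were, with the 4 above, among the upregulated DEGs of V described further on. NCU07232, annotated as the heat shock protein gene *hsp30-2* (chromosome V, 6162382 to 6164419), had the largest increase of the 15 and the smallest *P* value of all genes. It was measured at 3.24 and 2.37 CPM in the dark and 72.9 and 231 CPM in the light, a log2FC of 5.75 ± 0.63 (adjusted *P* = 0.081 by edgeR and 2.22e-15 by DESeq2). The light libraries differed about 3-fold, yet the lower of them was far above the dark level. Of the 11 genes on the list of heat shock proteins and chaperones, which does not hold it, only *hsp98* had an unadjusted *P* value under 0.05 (0.047, log2FC 1.00 ± 0.43, or 0.49 without dark replicate 2 and 1.82 without dark replicate 1), and DESeq2 called none of them. The log2FC of *hsp70-2* was −0.21, or 1.62 without dark replicate 2 and −0.98 without dark replicate 1. NCU07434, which encodes a short-chain dehydrogenase/reductase, was measured at 64.1 and 60.7 CPM in the dark and 309 and 335 CPM in the light, with both pairs of libraries tight (log2FC 2.37 ± 0.36). NCU02476 (*adh-2*, an alcohol dehydrogenase) was measured at 20.0 and 13.3 CPM in the dark and 109 and 89.1 CPM in the light (log2FC 2.57 ± 0.52), and *crf5-1* at 12.5 and 10.1 CPM in the dark and 52.1 and 54.0 CPM in the light (log2FC 2.22 ± 0.33). NCU05767, annotated as the zinc finger transcription factor gene *znf-10*, was low in the dark, at 3.51 and 2.37 CPM in the dark and 26.7 and 13.4 CPM in the light (log2FC 2.76 ± 0.52). The neighboring gene *poi-2* had 1 and 21 counts in the dark and 541 and 84 in the light, an adjusted *P* value of 0.00493 by DESeq2, and missed the threshold. For NCU01926, NCU07609 (a transporter of the major facilitator superfamily) and NCU01212, the light libraries differed by about 3-fold or more, although none reached down to a dark library. NCU01926 was at 5.6 and 5.07 CPM in the dark and 97.8 and 32.5 CPM in the light. NCU07609 was at 1.35 and 5.66 CPM in the dark and 88.0 and 23.5 CPM in the light, with a log2FC of 4.01 ± 0.96, or 5.36 without dark replicate 2. NCU01212 was at 2.9 and 4.9 CPM in the dark and 68.8 and 16.2 CPM in the light. NCU01212 lies whole within NCU01211 on the other strand, so that its count depends on the strand setting. The mitochondrially encoded NCU16002 was at 1.01 and 0.760 CPM in the dark and 10.1 and 6.61 CPM in the light (log2FC 3.22 ± 0.43). NCU08095 was at 8.84 and 30.4 CPM in the dark and 141 and 183 CPM in the light (log2FC 3.05 ± 0.73, or 4.20 without dark replicate 2). NCU05078, a protein-β-aspartate methyltransferase gene, was at 2.9 and 2.28 CPM in the dark and 18.4 and 13.03 CPM in the light (log2FC 2.60 ± 0.61).

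The 14 downregulated genes included genes for a transcription factor, for the cell wall and for lipid metabolism. NCU07430, which encodes the MADS box protein MAD-1 (chromosome I, 652513 to 655451), was measured at 148 and 182 CPM in the dark and 40.7 and 30.9 CPM in the light, a log2FC of −2.21 ± 0.32 (adjusted *P* = 0.000401 by DESeq2). The dark libraries were at least 3-fold above the light libraries. The glucanosyltransferase gene *gel-5*, of a family that remodels β-1,3-glucan in the cell wall, was measured at 249.9 and 582 CPM in the dark and 51.6 and 71.0 CPM in the light (log2FC −2.76 ± 0.46, or −2.03 without dark replicate 2). The fatty acid synthase gene *cel-1* was measured at 43.5 and 69.9 CPM in the dark and 8.91 and 4.13 CPM in the light (log2FC −3.12 ± 0.80), and NCU09497 (*fam-3*, fatty acid metabolism-3) at 30.0 and 41.6 CPM in the dark and 7.81 and 5.83 CPM in the light (log2FC −2.39 ± 0.34). The terpenoid gene NCU00175 (*tpd-1*) was at 13.8 and 22.6 CPM in the dark and 3.23 and 2.49 CPM in the light (log2FC −2.66 ± 0.64), and *bek-1* at 16.5 and 18.7 CPM in the dark and 3.3 and 3.86 CPM in the light (log2FC −2.30 ± 0.39). In these 6 genes, no light library reached a dark library. The same held for 4 genes that carry no name in the reference table. NCU00265 was at 176 and 232 CPM in the dark and 43.3 and 26.7 CPM in the light (log2FC −2.54 ± 0.56). NCU02138 was at 29.3 and 57.9 CPM in the dark and 7.2 and 7.27 CPM in the light (log2FC −2.59 ± 0.56). NCU07948 was at 317 and 506 CPM in the dark and 86.2 and 46.1 CPM in the light (log2FC −2.64 ± 0.50), and it was the gene of the 14 with the highest log2FC between A15 and S in the wild type. NCU09798 was at 34.4 and 29.1 CPM in the dark and 6.77 and 6.09 CPM in the light (log2FC −2.30 ± 0.50).

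For 4 further downregulated genes, the change was much smaller without dark replicate 2. NCU07853 (*use-1*, a uricase gene) was measured at 119 and 1635 CPM in the dark and 40.2 and 51.2 CPM in the light, and its log2FC of −4.26 was −1.38 without that library. NCU05401 was measured at 5.33 and 52.7 CPM in the dark and 1.83 and 1.51 CPM in the light, and its log2FC of −4.11 became −1.67. NCU09354 was measured at 2.83 and 67.8 CPM in the dark and 0.977 and 0.196 CPM in the light, and its log2FC of −5.88 became −2.24. In both genes, dark replicate 1 was still above the light libraries. NCU00638 was measured at 186 and 773 CPM in the dark and 50.8 and 61.1 CPM in the light, and its log2FC of −3.10 became −1.73. NCU09354 overlaps NCU09355 on the other strand. Without dark replicate 2, DESeq2 on the remaining 3 libraries gave an absolute log2FC of at least 2 for all 15 upregulated genes. It did so for 11 of the 14 downregulated genes. Without dark replicate 1, all 15 and all 14 had such a value. All 29 kept their direction, which followed from the groups not overlapping in any of them. The remaining libraries had also served to choose the genes, so these counts are no independent support.

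The wild-type libraries, which took no part in the DESeq2 call, lay apart in the same direction for most of these genes. Of the 15 genes that rose in the mutant, 13 had both wild-type light libraries above both wild-type dark libraries, against 22.7% of all genes tested. Of the 14 that fell, 12 had both wild-type light libraries below both dark ones, against 20.7% of all genes. At an unadjusted *P* value under 0.05 by edgeR, 13 of the 15 were higher in the wild type (5% of all genes) and 9 of the 14 were lower (4.26%). The exceptions without separation were NCU01212 and NCU05078 among the upregulated genes and NCU00265 and NCU05401 among the downregulated ones. For *vvd*, the wild type had 10.8 and 10.5 CPM in the dark and 330.1 and 335 CPM in the light. For NCU07232 it had 24.0 and 33.1 CPM in the dark and 693 and 597 CPM in the light. For NCU07430 it had 159.8 and 169 CPM in the dark and 70.1 and 75.1 CPM in the light. The larger set of DESeq2 calls at an adjusted *P* value under 0.05 was similar, since 53 of 67 higher genes and 78 of 106 lower genes had wild-type libraries apart in the same direction, and 1 gene in each set had them apart in the other direction. DESeq2 on the 4 wild-type libraries alone called 8 of the 15 and 3 of the 14 as DEGs, and 74 genes in all. The median log2FC of the 14 lower genes was −2.65 for the mutant and −1.57 for the wild type, and that of the 15 higher genes was 2.85 and 2.50, after a choice that took large values of the mutant.

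**Figure D1:**
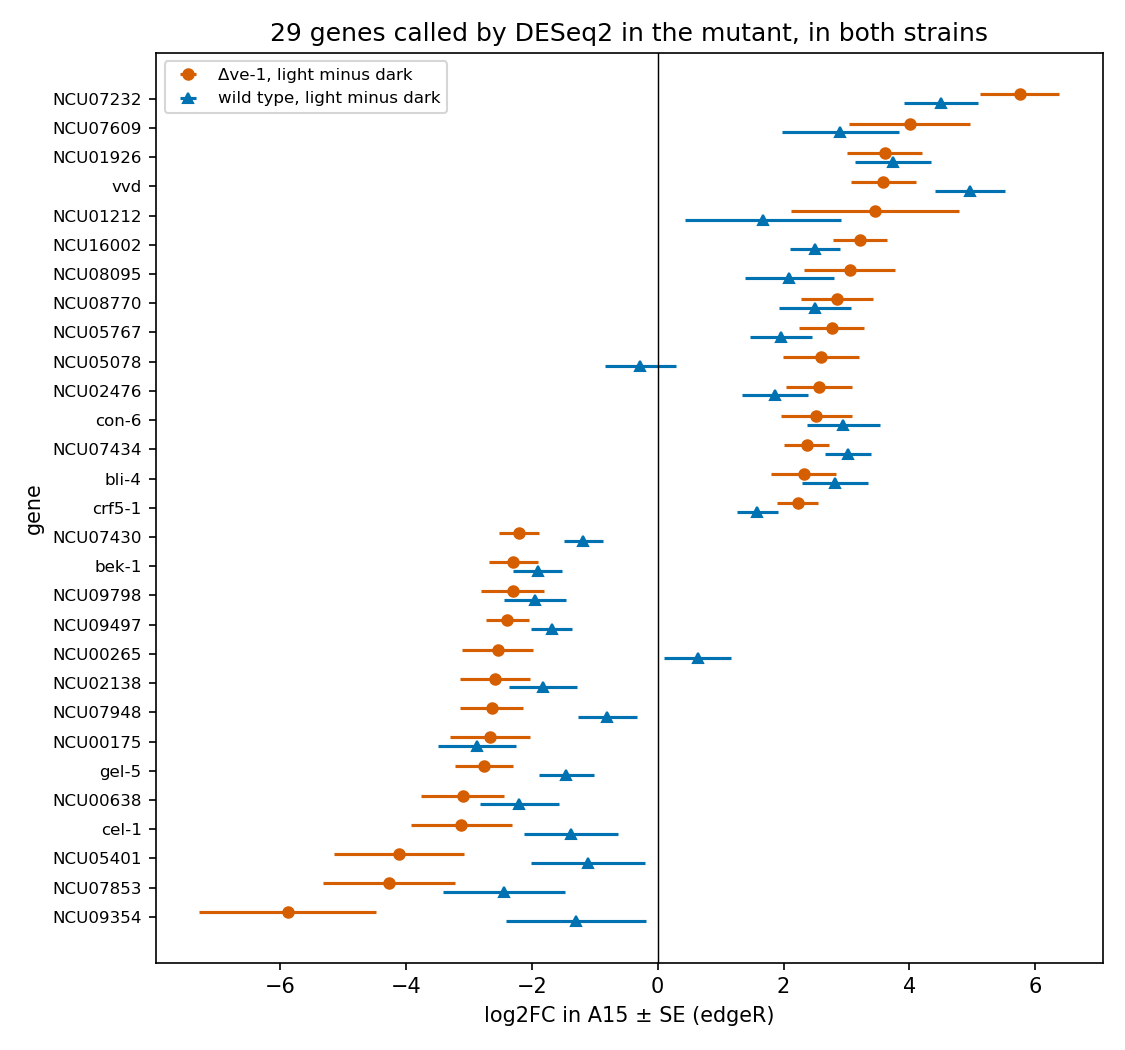
Log2FC (horizontal axis, light minus dark in A15, edgeR, ± SE, n = 2 libraries per group) of the 29 genes called by DESeq2 in the Δ*ve-1* mutant, with circles for the mutant and triangles for the wild type. All 15 upregulated genes except NCU05078 and all 14 downregulated genes except NCU00265 lay on the same side of 0 in both strains.

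Among the 7 photoreceptor genes, *vvd* and the cryptochrome gene *cry* were the 2 with both light libraries above both dark libraries (22% of all genes tested). They were also the 2 with a higher level in the light at an unadjusted *P* value under 0.05 by edgeR (4.56%). *cry* was measured at 56.7 and 64.1 CPM in the dark and 248 and 215 CPM in the light (log2FC 1.94 ± 0.57, adjusted *P* = 0.261 by edgeR and 0.00172 by DESeq2), with no overlap between the groups. The white collar gene *wc-1* was at 43.8 and 68.7 CPM in the dark and 63.4 and 53.2 CPM in the light (log2FC 0.05 ± 0.36), and the libraries overlapped. For *wc-2*, the phytochrome genes *phy-1* and *phy-2* and the opsin gene *nop-1*, the log2FC was between −0.48 and 0.24. It was 0.78 for *phy-1* and −0.42 for *phy-2* without dark replicate 2, and −0.80 and 1.62 without dark replicate 1. Of the 5 genes of the circadian oscillator, *frq* was measured at 28.1 and 50.9 CPM in the dark and 88.1 and 93.1 CPM in the light (log2FC 1.20 ± 0.50, unadjusted *P* = 0.0421 by edgeR, or a log2FC of 0.84 without dark replicate 1). The other 4 (*frh*, *ck-1a*, *wc-1* and *wc-2*) had unadjusted *P* values above 0.05. The log2FC of *frh* was −0.36, or 0.71 without dark replicate 2 and −0.96 without dark replicate 1.

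The early light genes were higher in the light in a larger share than all genes. Of the 11 members (*bli-3*, *bli-4*, *ccg-1*, *con-6*, *con-10*, NCU08770, *vvd*, *frq* and the 3 *al* genes), 9 had both light libraries above both dark libraries, against 22% of all genes tested, and 7 had an unadjusted *P* value under 0.05 and a higher level in the light, against 4.56%. Their median log2FC was 1.52, against −0.03 over all genes. edgeR called 0 of the 11 at an adjusted *P* value under 0.05, and DESeq2 called 5 of them. *bli-3*, the fifth of these, was measured at 216 and 220.4 CPM in the dark and 591 and 853 CPM in the light (log2FC 1.73 ± 0.43, adjusted *P* = 0.0129 by DESeq2). *ccg-1*, a clock-controlled gene, was the exception in direction, at 20742 and 25711 CPM in the dark and 9159 and 17444 CPM in the light (log2FC −0.80 ± 0.53).

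**Figure D2:**
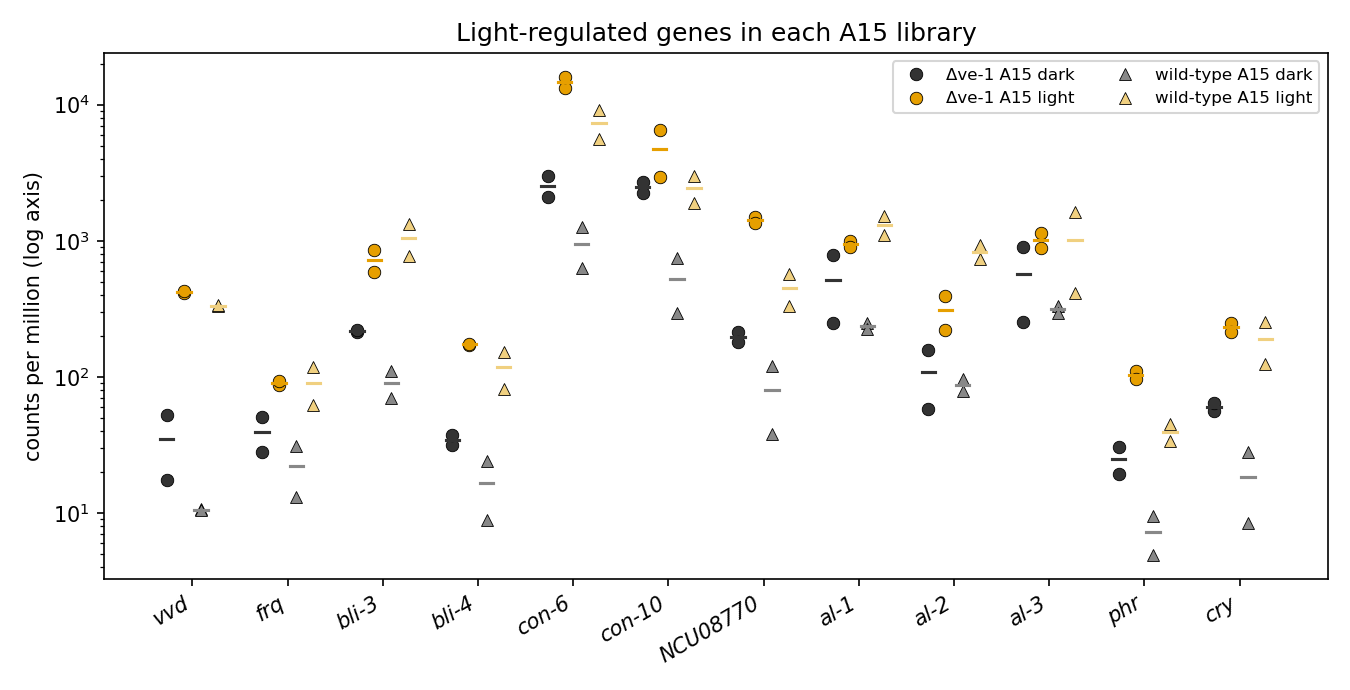
CPM (vertical log axis) of 12 light-regulated genes in each A15 library, with dark and light groups of the Δ*ve-1* mutant (circles) and of the wild type (triangles); short bars are means of 2 libraries. The mutant libraries of *vvd*, *bli-4*, *con-6*, NCU08770, *phr* and *cry* separated into dark and light, and those of *al-3* overlapped.

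The carotenoid genes showed wide dark replicates. *al-1*, which encodes phytoene desaturase, was measured at 781 and 249 CPM in the dark and 1004 and 907 CPM in the light (log2FC 0.89 ± 0.53, unadjusted *P* = 0.126). *al-2*, for phytoene synthase, was at 158 and 57.9 CPM in the dark and 395 and 223 CPM in the light (log2FC 1.52 ± 0.52, unadjusted *P* = 0.0175), and *al-3*, for geranylgeranyl diphosphate synthase, at 896 and 251 CPM in the dark and 1145 and 885 CPM in the light (log2FC 0.82 ± 0.72). In all 3 genes, dark replicate 1 was about 3-fold above dark replicate 2, and without replicate 2 the log2FC was 0.29, 0.97 and 0.18. Without replicate 1 it was 1.95 for *al-1*, 2.43 for *al-2* and 2.02 for *al-3*. Each of these values rests on a single dark library. The carotenoid oxygenase gene *cao-2* was at 57.7 and 144 CPM in the dark and 148 and 134 CPM in the light (log2FC 0.48 ± 0.44), and *ylo-1*, for the last oxidation step, at 220.5 and 48.9 CPM in the dark and 74.3 and 59.3 CPM in the light (log2FC −1.01 ± 0.62). The signs of both turned without dark replicate 1. edgeR and DESeq2 called 0 of these 5 genes at an adjusted *P* value under 0.05, and 1 had an unadjusted value under 0.05 by edgeR.

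All 3 genes of light-dependent and ultraviolet repair had both light libraries above both dark libraries, against 22% of all genes tested. All 3 were higher in the light at an unadjusted *P* value under 0.05 by edgeR, against 4.56% of all genes. The photolyase gene *phr* was measured at 30.5 and 19.4 CPM in the dark and 112 and 97.0 CPM in the light (log2FC 2.06 ± 0.41, adjusted *P* = 0.199 by edgeR and 0.00232 by DESeq2). The endonuclease gene *mus-18* was at 102 and 182 CPM in the dark and 278 and 309 CPM in the light (log2FC 1.05 ± 0.42, or 0.70 with an unadjusted *P* value of 0.144 by edgeR without dark replicate 1), and *cry*, a member of this list too, is given above. Of the 8 antioxidant enzyme genes, the catalase gene *cat-2* was at 158 and 176 CPM in the dark and 502 and 552 CPM in the light (log2FC 1.66 ± 0.33, adjusted *P* = 0.0116 by DESeq2) and the superoxide dismutase gene *sod-2* at 225 and 297 CPM in the dark and 598 and 595 CPM in the light (log2FC 1.19 ± 0.38, unadjusted *P* = 0.0117). The cytochrome *c* peroxidase gene *ccp-1* had the opposite direction, at 122 and 285 CPM in the dark and 70.5 and 97.2 CPM in the light (log2FC −1.28 ± 0.43, unadjusted *P* = 0.0163). Without dark replicate 2 it was −0.54 (unadjusted *P* = 0.136 by edgeR). *cat-3* and the dye-decolorizing peroxidase gene NCU09210 had log2FC values of 0.92 ± 0.49 and 0.56 ± 0.57, or 1.53 and 1.59 without dark replicate 2, the latter of the other sign without dark replicate 1, and *cat-1*, *cat-4* and *sod-1* between −0.05 and 0.23.

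**Figure D3:**
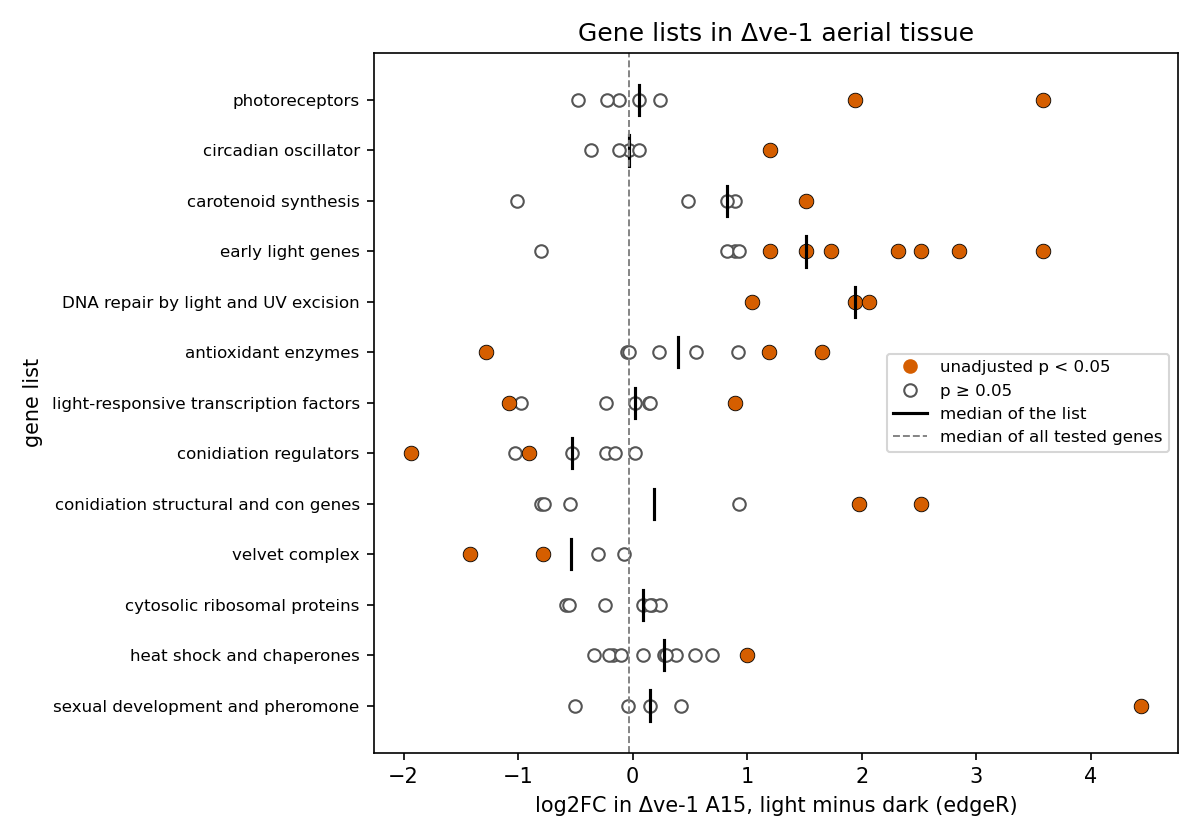
Log2FC in Δ*ve-1* A15 (horizontal axis, light minus dark, edgeR) of the members of 13 gene lists; filled points have an unadjusted *P* value under 0.05, short bars mark the median of each list and the dashed line the median of all 8193 genes (−0.03). The early light genes (median 1.52) and the 3 repair genes (median 1.94) lay to the right of the line, and the conidiation regulators (median −0.53) and the velvet complex (median −0.54, with the residual *ve-1* reads as 1 of its 4 members) to the left.

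The conidiation genes had values in both directions. Of the 6 structural and *con* genes, *con-6* is given above, and *con-8* was measured at 538 and 624 CPM in the dark and 2033 and 2536 CPM in the light (log2FC 1.97 ± 0.53, adjusted *P* = 0.00153 by DESeq2). *con-10* was at 2698 and 2248 CPM in the dark and 2929 and 6471 CPM in the light (log2FC 0.93 ± 0.59), without overlap but with light libraries that differed about 2-fold. The hydrophobin gene *eas*, the most counted gene, was at 172111 and 211535 CPM in the dark and 94932 and 130019 CPM in the light (log2FC −0.77 ± 0.75), and *con-13* at 996 and 381 CPM in the dark and 501 and 440.1 CPM in the light (log2FC −0.55 ± 0.49, of the other sign without dark replicate 1). None of the 7 conidiation regulators had a higher level in the light at an unadjusted *P* value under 0.05 by edgeR (4.56% of all genes tested), and 2 had a lower one (7.69%). With 7 genes and so low a share, nothing is read from the lack of higher ones. In 4 of the 7, both light libraries were below both dark libraries, against 20.1% of all genes. *acon-3*, a gene needed for early steps of conidiophore development, was measured at 734 and 517 CPM in the dark and 181 and 145 CPM in the light (log2FC −1.94 ± 0.55, adjusted *P* = 0.259 by edgeR and 0.0024 by DESeq2), with at least 2-fold between the nearest libraries of the 2 groups. *acon-2* was at 80.1 and 129 CPM in the dark and 55.1 and 56.4 CPM in the light (log2FC −0.91 ± 0.33, unadjusted *P* = 0.0225, or 0.1 without dark replicate 2 by edgeR). *fl*, the regulator required for macroconidiation, had nearly the same level in all 4 libraries, at 1309.5 and 1560.1 CPM in the dark and 1467 and 1447 CPM in the light (log2FC 0.02 ± 0.50). The log2FC was −0.23 ± 0.61 for *csp-1*, −0.16 ± 0.46 for *csp-2*, −0.53 ± 0.38 for *fld* and −1.03 ± 0.63 for *rca-1*. Leaving out dark replicate 2 turned the sign of *csp-1* and *rca-1*, and scaling by library size alone that of *csp-1* and *csp-2*.

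Transcription factor genes that respond to light showed small values. Of the 7 on the list (*fl* and *csp-1* among them), *sah-1* was measured at 64.7 and 55.1 CPM in the dark and 92.4 and 129.9 CPM in the light (log2FC 0.89 ± 0.32, unadjusted *P* = 0.0204) and *sub-1* at 165 and 392 CPM in the dark and 147 and 116 CPM in the light (log2FC −1.08 ± 0.44, unadjusted *P* = 0.0357). Without dark replicate 2, the value for *sub-1* was −0.32, and the unadjusted *P* values by edgeR were 0.356 for *sub-1* and 0.0527 for *sah-1*. *adv-1* had a log2FC of −0.97 ± 0.46, or −0.30 without that library, and *vad-3* and *hsf-2* had 0.14 and 0.15. In the velvet complex, the putative methyltransferase gene *lae-1* was at 164 and 184 CPM in the dark and 119.6 and 82.3 CPM in the light (log2FC −0.78 ± 0.32, unadjusted *P* = 0.0399, or 0.0707 without dark replicate 2 by edgeR), *ve-2* had a log2FC of −0.30, and *vos-1*, with 6 to 17 counts in each library, was low. The residual reads at *ve-1* gave a log2FC of −1.42 ± 0.42 at levels of 14 to 41 counts. The 7 cytosolic ribosomal protein genes had log2FC values between −0.58 and 0.24. Leaving out dark replicate 2 turned the sign for *crp-2*, *crp-15* and *crp-5*, whose values of −0.56, −0.58 and −0.24 became 0.65, 0.61 and 0.53. Without dark replicate 1, the signs of *crp-3*, *crp-4* and *crp-10* turned, from 0.09, 0.24 and 0.16 to −0.48, −0.28 and −0.36. Of the sexual development genes, *asd-1*, *ccg-4*, *mfa-1* and *pre-1* had unadjusted *P* values above 0.05, *poi-2* is given above, and *pre-2*, with 4 to 8 counts in each library, was not tested.

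Whether the response of A15 depended on *ve-1* was asked with the interaction of strain and light over the 8 A15 libraries. edgeR called 0 of 8193 genes (0%) at an adjusted *P* value under 0.05, 201 genes had an unadjusted value under 0.05 (2.45%), and DESeq2 on the same libraries called 2. A difference in the response to light between the strains was therefore not detectable for any gene by edgeR at this replication, which does not show that the responses were equal. Without dark replicate 1 of the mutant, edgeR called 30 genes. For *vvd*, the mutant response minus the wild-type response was −1.38 ± 0.67 (unadjusted *P* = 0.0694). In 10 of the 11 early light genes, the difference was negative, as in 56% of all genes, with a median of −1.01, against −0.07 over all genes. For *ccg-1*, 1 of the 10, the mutant had a log2FC of −0.80 and the wild type one of 0.21. The values were −1.81 ± 0.60 for *bli-3* (unadjusted *P* = 0.0149), −1.73 ± 0.72 for *al-2* (unadjusted *P* = 0.0412) and −1.58 ± 0.74 for *al-1* (unadjusted *P* = 0.0629). Most of these moved with single dark libraries of the mutant. Its log2FC without dark replicate 1 or 2 was 1.95 or 0.29 for *al-1*, 2.43 or 0.97 for *al-2* and 3.01 or 4.58 for *vvd*. The wild type had 2.47, 3.25 and 4.96. For *bli-3* it was 1.72 or 1.74, against 3.54 in the wild type. The dark levels differed as well: the wild type had 1267 and 635 CPM in the dark and 5598 and 9119 CPM in the light for *con-6*, 28.2 and 8.54 CPM in the dark and 254 and 124 CPM in the light for *cry* and 9.59 and 4.95 CPM in the dark and 45.0 and 33.9 CPM in the light for *phr*, below the mutant in the dark in each of these genes.

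In the 3 genes with the smallest *P* values of the interaction, the fitted values of the strains had opposite signs. The laccase gene *lacc* was measured at 6.81 and 3.97 CPM in the dark and 4.03 and 3.01 CPM in the light in the mutant and at 3.43 and 4.33 CPM in the dark and 20.9 and 27.5 CPM in the light in the wild type, a difference of −3.26 ± 0.57 (unadjusted *P* = 0.000316). The transcription factor gene *col-20* was measured at 35.1 and 45.3 CPM in the dark and 35.6 and 23.0 CPM in the light in the mutant and at 13.4 and 9.96 CPM in the dark and 51.0 and 87.2 CPM in the light in the wild type, a difference of −3.02 ± 0.55 (unadjusted *P* = 0.000426). NCU08428, annotated as a transporter, was measured at 6.2 and 4.22 CPM in the dark and 14.53 and 17.3 CPM in the light in the mutant and at 7.77 and 7.17 CPM in the dark and 4.56 and 3.81 CPM in the light in the wild type, a difference of 2.44 ± 0.50 (unadjusted *P* = 0.000952). No adjusted value passed. For *sah-1*, both strains had higher levels in the light, with 70.7 and 71.0 CPM in the dark and 401 and 369 CPM in the light in the wild type, and the difference was −1.55 ± 0.45 (unadjusted *P* = 0.00726).

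In vegetative mycelia of the same mutant, more genes passed the test. The common dispersion by edgeR, estimated over both strains, was 0.021 in V and 0.118 in A15. edgeR called 549 genes higher (7.07%) and 445 lower (5.73%) in illuminated V at an adjusted *P* value under 0.05, and 76 upregulated DEGs at the study's threshold (0.979%). The 994 genes called became 553 to 703 when 1 of the 4 V libraries was left out. Of the 76 DEGs, 75 were tested in A15. In A15, 46 of the 75 had both light libraries above both dark libraries (22% of all genes), 34 had a higher level at an unadjusted *P* value under 0.05 (4.56% of all genes), 1 had a lower one, and edgeR called 0 at an adjusted value under 0.05, where DESeq2 called 20 higher and 0 lower. The median log2FC of the 75 genes was 0.91 in A15 and 3.50 in V, where their choice had required at least 2. In the fit over the 8 mutant libraries, the dark level of A15 was above that of V without overlap in 54 of the 76 genes (36.4% of all genes) and below it in 14 (33.6%). The illuminated level of A15 was below that of V in 45 (41.2%) and above it in 28 (45.3%). The choice of the 76 took genes that were low in dark V and high in illuminated V, so nothing is read from these counts.

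The difference between the responses was tested as an interaction of stage and light in the mutant. A15 and V also differed in medium and culture time and, by the study's text, in growth temperature. An effect of stage cannot be told apart from these. The common dispersion in the fit over the 8 mutant libraries was 0.080, between those of the separate fits of A15 and V. The difference is the log2FC in A15 minus that in V, and a negative one can be a weaker rise or a stronger fall in A15. edgeR called 31 of 8092 genes with a negative difference (0.383%) and 0 with a positive one (0%). At an unadjusted *P* value under 0.05, 612 genes had a negative difference (7.56%). Of the 31, 27 were higher in the light in V at an adjusted *P* value under 0.05 (7.07% of all genes tested in V), and 25 were upregulated DEGs of V (0.979%). The difference is computed from the same V libraries, so nothing is read from these 2 counts. For *cry*, the levels on the common scale were 48.3 and 53.3 CPM in dark A15, 214 and 188 in illuminated A15, 1.52 and 2.04 in dark V and 273 and 277 in illuminated V. The illuminated levels of the stages were close, and the dark level of A15 was far above that of V. The response in A15 minus that in V was −5.27 ± 0.33 on the log2 scale (adjusted *P* = 0.00243). For *al-1*, the levels were 666 and 207 CPM in dark A15, 864 and 792 in illuminated A15, 10.7 and 10.7 in dark V and 3246 and 3426 in illuminated V (difference −7.36 ± 0.77, adjusted *P* = 0.0157), so that both dark A15 libraries stood above dark V and both illuminated ones below illuminated V. For *con-6*, A15 was above V in both conditions, with 1796 and 2477 CPM in dark A15, 11408 and 13949.8 in illuminated A15, 1.89 and 2.77 in dark V and 511 and 745 in illuminated V (difference −5.49 ± 0.55, adjusted *P* = 0.0138). NCU02190 (*osb-4*, an oxysterol-binding protein gene) had 10.9 and 8.0 CPM in dark A15, 42.9 and 41.3 in illuminated A15, 0.244 and 0.195 in dark V and 97.6 and 86.4 in illuminated V (difference −6.52 ± 0.39, adjusted *P* = 0.00243). For *vvd*, with 14.9 and 43.6 CPM in dark A15, 357 and 371 in illuminated A15, 6.03 and 6.47 in dark V and 1932 and 1658 in illuminated V, the difference of −4.52 ± 0.67 had an adjusted *P* value of 0.0521 and missed the threshold.

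Some genes that rose with light in V did not pass the test in A15 by either tool. *csp-1*, which encodes a light-induced transcriptional repressor, was at 675 and 1405 CPM in dark A15, 856 and 975 in illuminated A15, 62.0 and 82.8 in dark V and 1317 and 1339 in illuminated V (difference −4.38 ± 0.55, adjusted *P* = 0.0271), with 1 dark A15 library below both illuminated V libraries and the other above both. *csp-2* was at 533 and 483 CPM in dark A15, 479 and 459.5 in illuminated A15, 65.0 and 74.0 in dark V and 407 and 428 in illuminated V (difference −2.70 ± 0.30, adjusted *P* = 0.0188), and *cao-2* had a log2FC of 4.76 in V and 0.48 in A15 in separate fits (difference in the common fit −4.21 ± 0.58, adjusted *P* = 0.0434). For *fl*, with 1116 and 1296 CPM in dark A15, 1263 and 1264 in illuminated A15, 16.5 and 15.7 in dark V and 76.0 and 74.8 in illuminated V, the difference of −2.16 ± 0.32 had an adjusted *P* value of 0.051. Among the called genes, NCU07430 and *bek-1* fell in A15 and had log2FC values of 0.38 and 0.52 in V. The 31 calls depended on single libraries. Without either light library of A15 or either dark library of V, edgeR called 0 genes, without either light library of V 3 and 2, and without dark replicate 1 or 2 of A15 2001 and 1221.

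**Figure D4:**
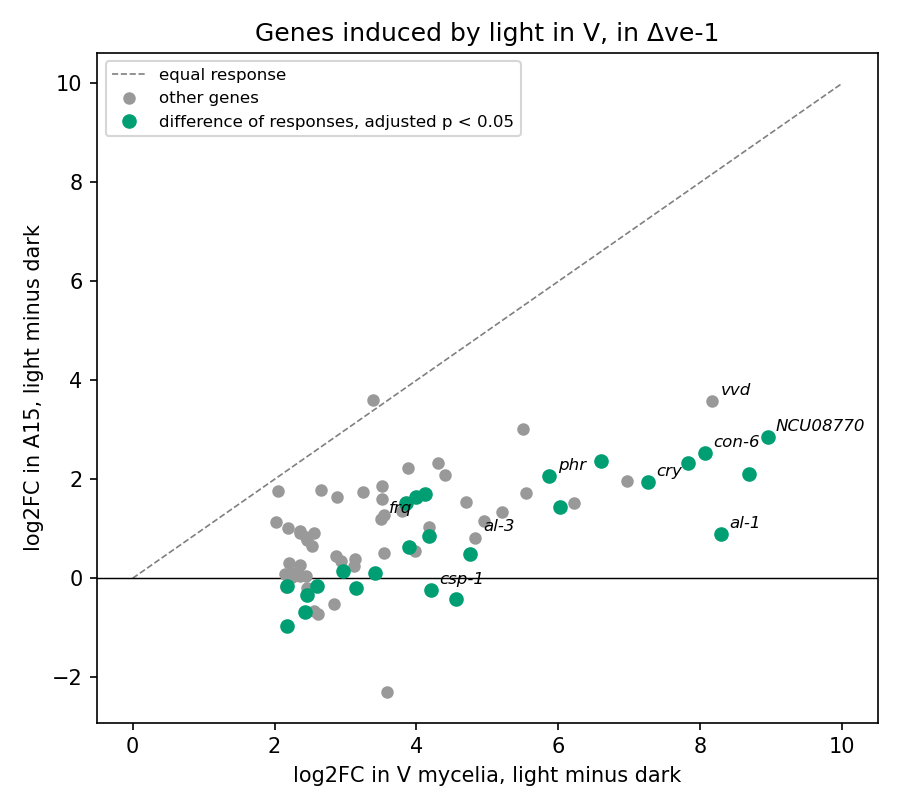
Log2FC in A15 (vertical axis) against log2FC in V (horizontal axis) in the Δ*ve-1* mutant, light minus dark by edgeR, for the 75 genes that were upregulated DEGs of V and were tested in A15. All but 1 of the points lay below the dashed line of equal response, from which nothing is read, as the genes were chosen for a large rise in V. The genes with an adjusted *P* value under 0.05 for the difference are filled in green.

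Several of the genes that changed in A15 were also genes of conidiation in the wild type. Compared with S, dark A15 of the wild type had 1445 genes higher (17.5%) and 780 lower (9.47%) at an adjusted *P* value under 0.05 by edgeR. The 2225 genes called became 943 and 1130 without dark replicate 1 or 2 of A15. Of the 15 genes that rose with light in the mutant, 8 were higher in A15 and 0 lower, and of the 14 that fell, 6 were higher and 1 was lower. The log2FC of A15 against S was 7.47 for *con-6*, 7.47 for NCU08770, 7.13 for *bli-4* and 4.47 for NCU07434 among the upregulated genes. It was 5.45 for NCU07948, 3.19 for NCU00175 and 1.97 for *gel-5* among the downregulated ones, and 6.26 for *acon-3*. NCU07232 and *cel-1*, with −0.38 and −0.02, had adjusted *P* values of 0.799 and 0.989. These values hold for the wild type only. In dark A15, NCU00175 was at 651 and 923 CPM in the wild type and at 13.8 and 22.6 CPM in the mutant. *gel-5* had the other order, at 85.5 and 67.5 CPM in the wild type and 249.9 and 582 CPM in the mutant. NCU07948 was at 534 and 518 CPM in the wild type and 317 and 506 CPM in the mutant.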

How the data were processed

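The authors sequenced poly(A)-selected RNA as single-end reads, aligned them with TopHat2 (2.11), and deposited raw counts per gene over exons, with opposing-strand specificity assumed. The build was NC12. All 9758 genes are counts without normalization.

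For this report, genes were filtered with filterByExpr (minimum count 10), scaled by TMM and tested with the quasi-likelihood test of edgeR 4.0.16 (R 4.3.3) over the 8 A15 libraries, or over the 8 mutant libraries of A15 and V for the test of stage. Light in V was tested over the 8 V libraries of both strains, and A15 against S over the 16 libraries of A15 and S. Values were adjusted by Benjamini-Hochberg over all genes tested. SE is the absolute log2FC divided by the square root of *F*. DESeq2 1.42.0, the tool of the study, was an alternative, as were other scalings, filters, sets of libraries, a replicate block and leaving out each library. The scripts were tested on simulated counts. Levels are TMM-scaled CPM and are compared within a gene only.

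Named genes were the members of 13 lists, called genes up to 12 per direction, and the leading genes of each interaction. The 29 genes of DESeq2 lie outside that rule. The samples compared and the lists were chosen with earlier results of these data known. Symbols came from a RefSeq table (9757 IDs matched, 1118 with a symbol). *poi-1* was not matched.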

Additional observations from a re-analysis of the deposited data

Results flagged for a closer look

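For 13 genes named above, the response to light of the Δ*ve-1* mutant differed between A15 and V by the test of the interaction of stage and light (edgeR, 2 libraries per group). Each difference is the log2FC in A15 minus that in V, and each was negative. Among the light genes it was −7.36 ± 0.77 for *al-1* (adjusted *P* = 0.0157), −6.04 ± 0.58 for NCU08770 (0.013), −5.49 ± 0.55 for *con-6* (0.0138), −5.48 ± 0.68 for *bli-4* (0.0271), −5.27 ± 0.33 for *cry* (0.00243), −4.21 ± 0.58 for *cao-2* (0.0434) and −3.75 ± 0.42 for *phr* (0.0188). For NCU02190 it was −6.52 ± 0.39 (0.00243) and for NCU07434 −4.19 ± 0.39 (0.013). Among the conidiation regulators, the difference was −4.38 ± 0.55 for *csp-1* (0.0271) and −2.70 ± 0.30 for *csp-2* (0.0188). NCU07430 and *bek-1*, with −2.53 ± 0.36 (0.0455) and −2.75 ± 0.39 (0.0463), were lower in illuminated A15. Leaving out either light library of A15 or either dark library of V ended all 31 calls of this test, these 13 included.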

How the results depend on the processing

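With the study's threshold, DESeq2 called 36 genes in mutant A15 on the 8 A15 libraries and 29 on the 4 mutant libraries, against 0 by edgeR, and 293 and 332 without dark replicate 1 and 45 and 89 without dark replicate 2. At an adjusted *P* value under 0.05 the edgeR count of 0 became 2 with library size scaling, 1 without the filter, 61 with all 24 libraries, 46 with the 8 mutant libraries of A15 and V, and 2 with the 16 libraries of A15 and S, the last pair chosen after the data were seen. Leaving out 1 library gave 0 to 788. DESeq2 on 8 and on 4 libraries gave 273 and 173, 1347 and 1893 without dark replicate 1, and 337 and 754 without dark replicate 2. The count for strain by light (0) was 2 with DESeq2 and 0 to 30 with a library left out. The 31 genes of stage by light became 18 with library size scaling, 240 with DESeq2 and 0 to 2001 with a library left out. In the wild type (0), the counts were 5 with library size scaling, 5 without the filter, 217 and 321 with DESeq2, 22 with its 4 libraries alone, 54 with all 24 libraries and 0 to 12 with a library left out. The V count (994) was 98 with all 24 libraries and 553 to 703 with a library left out. A15 against S (2225) gave 943 to 1969 with a library left out, and 1981 to 3077 under the other alternatives. The causes were not tested.

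Blocking on the title number left 0 genes in mutant A15, 21 by stage and 1981 for A15 against S, and gave 1833 in V. In A15, same-numbered mutant libraries deviated together at 0.176 and wild-type ones at −0.225, so the numbers were not taken as pairs. No such correlation was computed for V, so whether its libraries were paired was not tested.

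Library size scaling moved the median log2FC of all genes from −0.03 to 0.22, and turned *csp-1* to 0.11 and *csp-2* to 0.094. DESeq2 on 4 libraries put *fl* at −0.0051. With 1 library left out of the edgeR fit, the log2FC ranged from −0.23 to 0.41 for *wc-1*, −0.023 to 1.29 for *cao-2*, −1.72 to 0.46 for *ylo-1*, −0.030 to 1.59 for NCU09210, −0.67 to 0.42 for *csp-1*, −0.089 to 0.16 for *fl*, −1.74 to 0.48 for *rca-1*, −1.08 to 0.31 for *con-13*, −1.20 to 0.65 for *crp-2*, −1.22 to 0.61 for *crp-15* and −0.90 to 0.060 for *asd-1*. With DESeq2 on 8 and on 4 libraries, it was −0.25 and −0.28 for *wc-1*, −0.046 and −0.075 for *cao-2*, 0.44 and 0.41 for *ylo-1*, −0.053 and −0.082 for NCU09210, −0.11 and −0.14 for *fl* and 0.29 and 0.26 for *con-13* without dark replicate 1, and 0.42 and 0.41 for *csp-1*, 0.48 and 0.47 for *rca-1*, 0.65 and 0.64 for *crp-2*, 0.61 and 0.61 for *crp-15* and 0.060 and 0.054 for *asd-1* without dark replicate 2.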
